A study of Mus musculus with 8 samples.

Results

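The genes described here are 10 members of the hypoxia pathway, Hif1a, Epas1, Egln1, Egln3, Vhl, Bnip3, Ndrg1, Ddit4, Adm and P4ha1. Their RNA was measured in mouse cells sorted as eosinophils. The genes were taken as the rows of the deposited expression table whose gene symbol equals one of these names. All 10 were found among 38392 genes. RNA-seq was run on the sorted cells, with 4 libraries from bone marrow (BM) and 4 from small intestine (SI). Eosinophils are granulocytes made in marrow that later populate tissues such as the gut wall. All donors were wildtype female C57/BL6 mice, and the labels give no age. Bone marrow cells were gated as CD11b+ SiglecF+ SSChi without Ly6G or Ly6C, and intestinal cells as CD11b+ SiglecF+ SSChi without MHC-II. Intestinal tissue was stripped of its epithelium, digested with warm collagenase and passed over CD11b beads, whereas marrow was flushed and sorted with neither step. Tissue and handling therefore cannot be told apart in any comparison below.

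In cells with oxygen, the prolyl hydroxylases EGLN1 and EGLN3 modify the alpha subunits HIF-1α (gene Hif1a) and HIF-2α (gene Epas1), and the VHL ubiquitin ligase then marks them for destruction. When oxygen is scarce the alpha subunits persist, pair with ARNT and switch on target genes, among them Bnip3, Ndrg1, Ddit4, Adm, P4ha1 and the hydroxylase genes themselves. Control of the alpha subunits is mainly at the level of protein, which was not measured here, and inflammatory signals can raise Hif1a mRNA in myeloid cells independently of oxygen.

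Between 11508002 and 21289164 reads per library fell in genes. A normalised count is a read count, recovered from the deposited values and divided by its library's size factor. A positive difference means a higher value in small intestine, on the deposited log2 scale, which compresses low counts. It is given with the standard error (SE) of limma and p-values adjusted over all 38392 genes. Genes with an adjusted p under 0.05 are called higher or lower.

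The labelled cell type was checked against lists of marker genes. The 8 eosinophil markers together took 0.01997 to 0.0319% of reads in bone marrow and 0.215 to 0.268% in small intestine. They did not move together, with 4 higher (Alox15 and Ccr3 held the most intestinal reads) and 4 lower, among them the granule protein genes Epx and Prg2. The 12 neutrophil precursor markers, led by Mpo and Elane, took 2.98 to 3.43% in bone marrow and 0.246 to 0.325% in small intestine. In every bone marrow library they far exceeded the eosinophil markers, at 3.31% beside 0.0230% in BM_1. Of the 12 neutrophil precursor markers, 11 were lower in small intestine, while Retnlg was higher and led the intestinal share. Whether cells other than eosinophils gave part of the bone marrow reads of the hypoxia genes was not tested. The 14 epithelial markers took at most 0.00162% in bone marrow and 0.0232 to 0.156% in small intestine, with the highest share in library SI_6. Macrophage and dendritic markers took 0.00690 to 0.00732% against 0.179 to 0.201%, led in small intestine by Itgax and Adgre1, which eosinophils can also express, and 10 of the 12 were higher. Endothelial markers took 0.00321 to 0.00427% against 0.0487 to 0.0578%, with 9 of 10 higher. Lymphoid markers took 0.00196 to 0.00331% against 0.00396 to 0.0181%. The 20 genes known to respond to tissue dissociation, such as Dusp1 and Zfp36, took 0.0886 to 0.115% against 0.645 to 0.818%. All of these shares moved with tissue, and their part in the results on the hypoxia genes was not tested. In such bulk libraries, fewer cells of a type and less RNA per cell cannot be told apart.

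**Figure D1:**
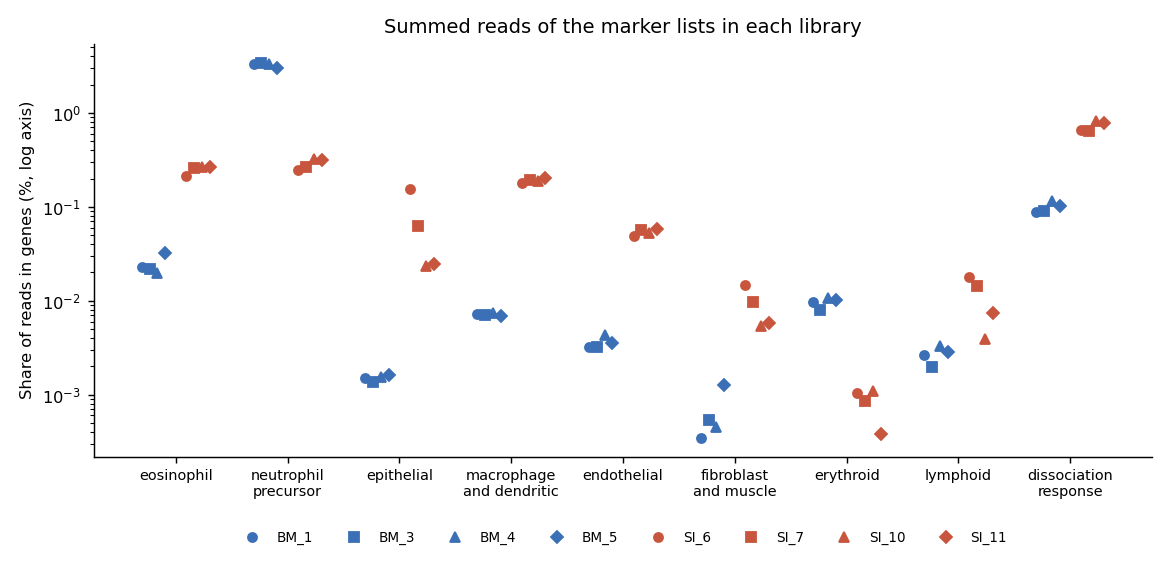
Share of reads in genes, in percent on a log axis, taken by each marker list in each of the 8 libraries, with bone marrow in blue and small intestine in red. The neutrophil precursor list is higher in all 4 bone marrow libraries, while the epithelial list reaches 0.156% in SI_6.

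Of the 10 genes, 5 were higher in small intestine (Hif1a, Epas1, Ddit4, Adm and P4ha1), 2 were lower (Egln1 and Egln3), and Vhl, Bnip3 and Ndrg1 were not called. Over all 38392 genes, 22.0% were called higher and 12.9% lower. The 4 bone marrow and 4 small intestine libraries did not overlap for 7 of the 10 genes, against 34.3% of all genes. Of all genes, 22177 had a mean under 10 reads, and the share without overlap was not taken among the rest. A mean of at least 10 reads was reached by 9 of the 10, all but Adm, and among the 16215 genes that did so 34.6% were higher and 28.6% lower. The median difference of the 10 genes was 0.47, beside 0.37 over all genes and 0.12 over those 16215. The direction of small differences depended on scaling: centring each library on the median of all genes lowered every difference by 0.90, and then 3 of the 10 were called higher and 4 lower.

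**Figure D2:**
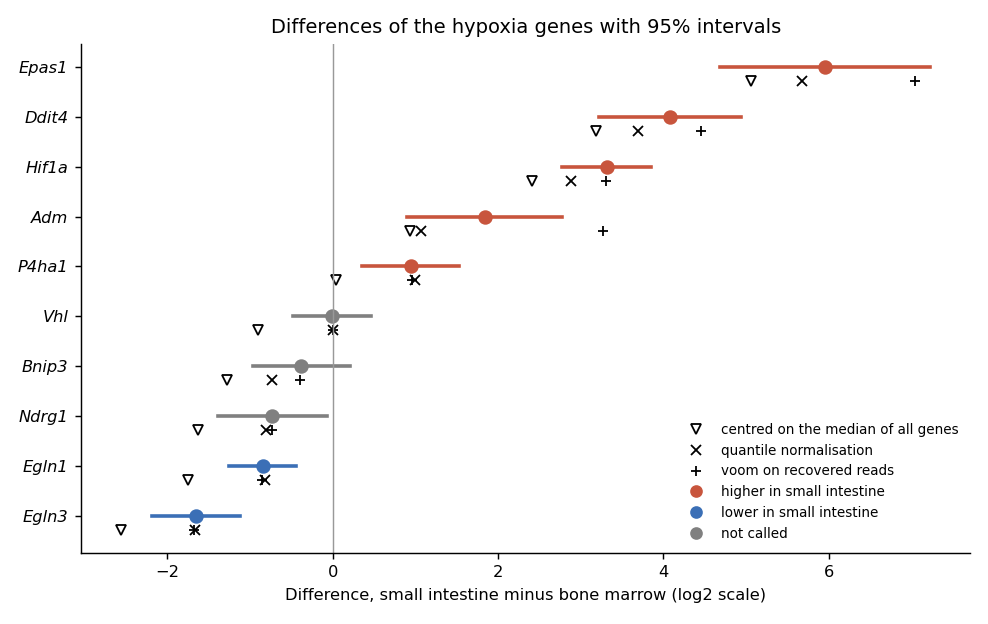
Difference between small intestine and bone marrow for the 10 genes on the deposited log2 scale, as limma estimates with 95% confidence intervals, coloured by call, with open triangles, crosses and plus signs for values after median centring, after quantile normalisation and from limma voom. Epas1 (5.96), Ddit4 (4.08) and Hif1a (3.31) lie farthest to the right, Egln3 (-1.66) and Egln1 (-0.85) lie left of 0, and the interval of Vhl is centred near 0.

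HIF binds a short core in DNA, written as ACGTG or GCGTG, and the promoters of these genes were read for it. RefSeq promoters of build GRCm38.p6, from 250 bases before to 50 bases after a gene's start, were matched for 8 of the 10 genes, with Epas1 and Ndrg1 not matched. A RefSeq start can differ from the edge of the gene span given below, and those of Hif1a, Egln1, Vhl, Bnip3 and Ddit4 lie inside it. On either strand ACGTG stood in 6 of the 8 promoters and in 19.6% of all 32851, GCGTG in 5 of the 8 and in 32.4%, and either in 7 of the 8 and in 43.8%. Both cores hold a CG pair, and the GC content of the 8 promoters was 54.7 to 86% beside a median of 52.7% for all. The stretches with ACGTG are shown because the genes that carry them went in both directions. Each is 60 bases on the gene's strand and holds the ACGTG nearest the start. Cores within it are in capitals, reverse complements (CACGT and CACGC) included, and CACGTG holds ACGTG on both strands. Cores outside these stretches are not shown, among them ACGTG of Hif1a on both strands, 135 and 134 bases before its start.
Hif1a (chr12:73907769-73907828, plus strand): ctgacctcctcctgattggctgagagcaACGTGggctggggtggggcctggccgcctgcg
Egln1 (chr8:124949291-124949350, minus strand): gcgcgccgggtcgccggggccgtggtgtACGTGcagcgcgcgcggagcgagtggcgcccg
Egln3 (chr12:54204065-54204124, minus strand): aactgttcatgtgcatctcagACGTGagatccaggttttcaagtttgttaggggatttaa
Bnip3 (chr7:138909582-138909641, minus strand): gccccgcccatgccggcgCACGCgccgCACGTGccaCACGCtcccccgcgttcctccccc
Ddit4 (chr10:59951926-59951985, minus strand): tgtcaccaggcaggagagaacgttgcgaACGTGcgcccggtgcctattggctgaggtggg
P4ha1 (chr10:59323236-59323295, plus strand): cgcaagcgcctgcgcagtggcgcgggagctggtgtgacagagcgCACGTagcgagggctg
The Adm promoter held GCGTG and no ACGTG, and the Vhl promoter held neither. Among the genes shown, Hif1a, Ddit4 and P4ha1 were higher in small intestine, Egln1 and Egln3 were lower, and Bnip3 was not called. A match of letters is a description and shows no binding.

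The alpha subunits were both higher in small intestine. Hif1a (ENSMUSG00000021109; GRCm38 chromosome 12, 73901375 to 73947530, plus strand) had 1125, 1081, 970.3 and 1120 normalised counts in BM_1, BM_3, BM_4 and BM_5. In SI_6, SI_7, SI_10 and SI_11 it had 7124, 11614, 12743 and 12440. The tissues were far apart, and SI_6 was the lowest of the intestinal libraries. The means were 1074 ± 71.9 and 10980 ± 2615 (SD, n = 4 each), a 10.2-fold ratio, and the difference was 3.31 ± 0.23 (limma adjusted p = 1.67e-05). Per kilobase of exon, Hif1a went from rank 2917 to rank 277 of all genes. Of its exonic bases, 5.6% lie over Gm15283 on the opposite strand and 2.51% over Gm49321 on the same strand. Without SI_6 the difference was 3.51.

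Epas1 (ENSMUSG00000024140; chromosome 17, 86753700 to 86833410, plus strand) was near the limit of detection in bone marrow, with 0, 3.26, 4.78 and 10.2 normalised counts in the same order, from 21 reads in all. In small intestine it had 533.8, 316.2, 324.9 and 361.5 normalised counts, highest in SI_6, from 1319 reads. The means were 4.57 ± 4.27 and 384 ± 102 (SD, n = 4 each), an 84.1-fold ratio, or 143-fold without BM_5. The deposited scale gave a difference of 5.96 ± 0.56 (limma adjusted p = 7.32e-05), and 5.79 without SI_6. Epas1 is known for its high level in endothelium, and 9 of the 10 endothelial markers were higher in small intestine. Within the intestine their summed share, led by Pecam1 and Vwf, was lowest in SI_6, at 0.0487% of reads, where Epas1 was highest. Single endothelial markers differed in this. Cdh5, named after its values were seen, had 125.5 normalised counts in SI_6 beside 90.1, 89.7 and 74.7 in SI_7, SI_10 and SI_11. Cldn5, with only 27 intestinal reads, was nearly level, at 7.64 in SI_6 beside 8.32, 7.66 and 8.30. The other markers of this list are not described singly. The shares of the epithelial list (0.156%) and of the fibroblast and muscle list (0.0148%) were also highest in SI_6. Whether cells other than eosinophils gave part of the Epas1 reads was not tested.

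Hif1a remained the more abundant alpha subunit in every library. The ratio of Epas1 to Hif1a in reads per kilobase, with 0.5 reads added to each, was 0.000359, 0.0035, 0.00572 and 0.0101 in the bone marrow libraries and 0.0791, 0.0288, 0.0269 and 0.0307 in the intestinal ones. It was 12.7-fold higher in small intestine (log2 difference 3.67). BM_1 had no Epas1 read, so its ratio rests on the 0.5 reads added, and without BM_1 the log2 difference was 2.66. The groups did not overlap (exact 2-sided permutation test, p = 0.0286, adjusted over 3 ratios 0.0286), which is the smallest p that 70 assignments of the libraries allow. When single libraries were left out the log2 difference stayed between 2.66 and 4.26, but the adjusted p was 0.0571 without BM_1 or without any one intestinal library.

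The oxygen sensors went the other way. Egln1 (ENSMUSG00000031987; chromosome 8, 124908587 to 124949324, minus strand), the main HIF prolyl hydroxylase of most cells, had 783.8, 801.5, 801.9 and 768.8 normalised counts in bone marrow and 430.1, 386.9, 416.8 and 522.7 in small intestine. Its 4 bone marrow values lay within a narrow band above all intestinal ones. It was 1.80-fold lower (789 ± 15.9 against 439 ± 58.6, SD, n = 4 each), with a difference of -0.85 ± 0.18 (limma adjusted p = 0.0057).

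Egln3 (ENSMUSG00000035105; chromosome 12, 54178981 to 54203860, minus strand), the hydroxylase that HIF itself induces most strongly in many cells, had 546.3, 412.2, 450.7 and 410.0 normalised counts in bone marrow. In small intestine it had 98.2, 141.5, 171.7 and 163.6, all below bone marrow. It was 3.16-fold lower (455 ± 63.8 against 144 ± 32.9, SD, n = 4 each), with a difference of -1.66 ± 0.23 (limma adjusted p = 0.000704). Egln3 fell more than Egln1: their ratio per kilobase ran from 0.695 to 0.941 in bone marrow and from 0.310 to 0.557 in small intestine, 1.77-fold lower (log2 difference -0.83, exact 2-sided permutation p = 0.0286, adjusted 0.0286). Without BM_1 it was -0.73 (adjusted exact permutation p = 0.0571).

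Vhl (ENSMUSG00000033933; chromosome 6, 113623959 to 113631633, plus strand), the substrate receptor of the ligase, had 161.7, 197.6, 217.2 and 158.0 normalised counts in bone marrow and 170.3, 153.9, 186.0 and 222.8 in small intestine. The groups overlapped over nearly their whole range. Vhl was not called (limma adjusted p = 0.99), and the 95% interval of its difference ran from -0.48 to 0.47.

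**Figure D3:**
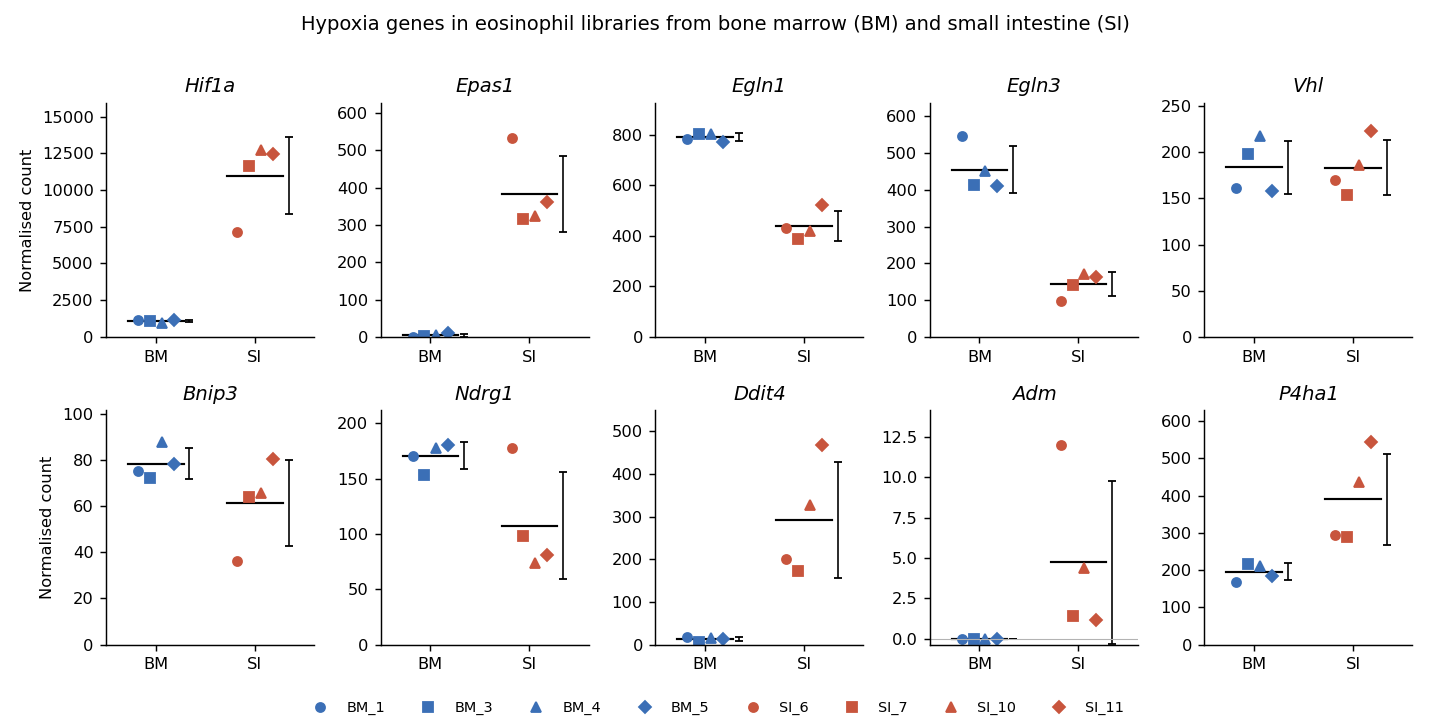
Normalised counts of the 10 genes in each library, on linear axes of their own, with bars for the mean and whiskers for the SD (n = 4 per tissue). SI_6 is the lowest intestinal library for Hif1a, Egln3 and Bnip3 and the highest for Epas1, Ndrg1 and Adm.

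Among the targets, Ddit4 (ENSMUSG00000020108; chromosome 10, 59949669 to 59951834, minus strand), which restrains the growth kinase complex mTORC1 under stress, was higher. It had 16.9, 6.52, 15.3 and 13.9 normalised counts in bone marrow and 199.8, 172.0, 328.2 and 467.0 in small intestine. All intestinal values lay above all bone marrow values, with a wide spread among themselves. The means were 13.2 ± 4.58 and 292 ± 135 (SD, n = 4 each), a 22.2-fold ratio, and the difference was 4.08 ± 0.38 (limma adjusted p = 6.9e-05). Ddit4 is also induced by glucocorticoids, energy stress and DNA damage. Of the 20 dissociation genes 18 were called higher as well, and their part in the Ddit4 result was not tested.

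P4ha1 (ENSMUSG00000019916; chromosome 10, 59323296 to 59373304, plus strand), a catalytic subunit of the collagen prolyl hydroxylase, had 168.6, 216.5, 211.5 and 184.1 normalised counts in bone marrow. In small intestine it had 293.6, 289.8, 436.5 and 542.9, so the groups did not overlap. It was 2.002-fold higher (195 ± 22.7 against 391 ± 122, SD, n = 4 each), with a difference of 0.94 ± 0.26 (limma adjusted p = 0.0199). The call was lost when libraries were centred on the median of all genes (0.04, adjusted p = 0.95) or of the well-covered genes (0.88, adjusted p = 0.0581), and without BM_1 (0.88, adjusted p = 0.0587).

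Adm (ENSMUSG00000030790; chromosome 7, 110627661 to 110629820, plus strand) encodes adrenomedullin, a peptide that widens blood vessels and tightens their wall. It had no read in any bone marrow library and 17 reads over the 4 intestinal ones. Its normalised counts were 12.01, 1.39, 4.38 and 1.19 in SI_6, SI_7, SI_10 and SI_11, so most of the signal came from SI_6, the library with the highest share of epithelial markers. The part of such cells was not tested. Against a floor of 3 reads over the bone marrow libraries, Adm was at least 7.83-fold higher, or at least 3.83-fold without SI_6, and the difference was 1.84 ± 0.41 (limma adjusted p = 0.00791). Without SI_6 the difference was 1.44 (adjusted p = 0.00416), and the call was lost with quantile normalisation (1.07), with median centring (0.94) and with a pseudocount of 5 (0.83).

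Ndrg1 (ENSMUSG00000005125; chromosome 15, 66929318 to 66969640, minus strand), a stress-induced gene of cell differentiation, had 170.9, 153.3, 178.0 and 180.4 normalised counts in bone marrow. In small intestine it had 177.9, 98.5, 73.3 and 80.6. SI_6 lay inside the bone marrow range and the other intestinal libraries below it. Ndrg1 was not called, at -0.73 ± 0.29 (limma adjusted p = 0.0829, 171 ± 12.3 against 108 ± 48.1, SD, n = 4 each). Without SI_6 the difference was -0.996 and was called lower (adjusted p = 0.00274). Of its exonic bases, 6.35% lie over Gm17035 and 2.08% over Gm2895, both on the opposite strand.

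Bnip3 (ENSMUSG00000078566; chromosome 7, 138890836 to 138909519, minus strand), a receptor that delivers mitochondria to autophagy, had 75.1, 72.4, 88.0 and 78.1 normalised counts in bone marrow and 36.0, 63.8, 65.6 and 80.6 in small intestine. The groups overlapped, and Bnip3 was not called, at -0.38 ± 0.26 (limma adjusted p = 0.299). Its 95% interval ran from -0.97 to 0.21. The antisense gene Gm45507 covers 22.3% of its exonic bases, and since the strand setting of the counting is not given in the sources used here, reads of the pair cannot be told apart.

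The paralog Bnip3l, also a mitophagy receptor and known for clearing mitochondria from maturing red cells, was lower, from 2402 ± 244 to 959 ± 98.8 normalised counts (-1.32 ± 0.18, limma adjusted p = 0.00062). The ratio of Bnip3 to Bnip3l per kilobase was 0.0473 to 0.0631 in bone marrow and 0.0694 to 0.128 in small intestine, 1.90-fold higher (log2 difference 0.93, exact 2-sided permutation p = 0.0286, adjusted 0.0286). Without any one bone marrow library the adjusted p was 0.0571 and the log2 difference 0.85 to 0.98. Erythroid markers took 0.00806 to 0.0106% of reads in bone marrow and at most 0.00109% in small intestine, and their part in the Bnip3l difference was not tested.

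**Figure D4:**
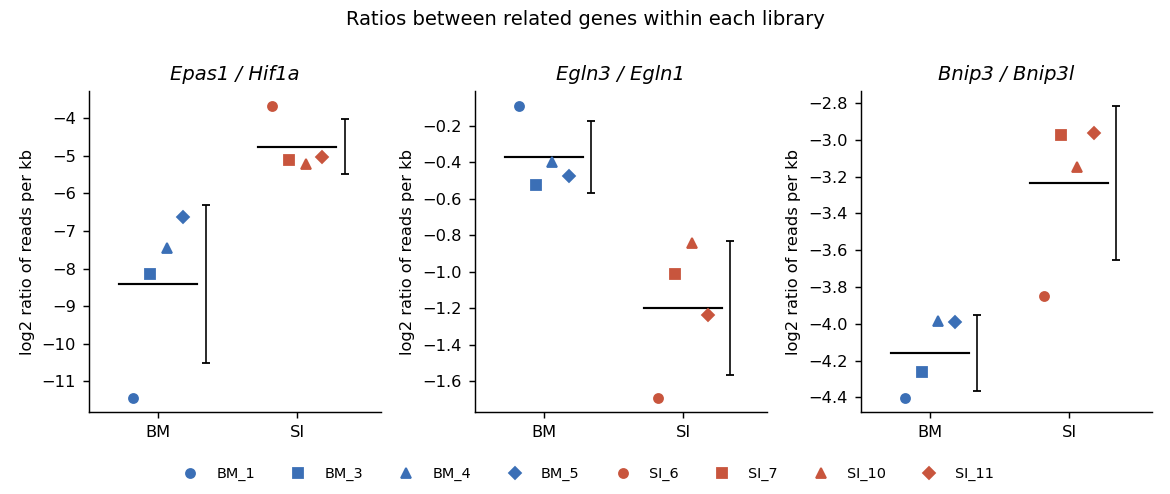
Ratio of reads per kilobase within each library for Epas1 to Hif1a, Egln3 to Egln1 and Bnip3 to Bnip3l, as log2 values, with 1 point per library, a bar for the mean and a whisker for the SD (n = 4 per tissue). No ratio overlaps between the tissues, and SI_6 lies apart from the other intestinal libraries at -3.66 for Epas1 to Hif1a.

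The members varied more among intestinal than among bone marrow libraries, with a median SD of 0.42 against 0.14 on the log2 scale. Adm enters the bone marrow median with an SD of 0, since it had no read there. The same medians over all genes were not taken, so a trait of the members cannot be read from this. SI_11 held the highest intestinal value for 5 of the 10, and for 32.4% of all 16215 well-covered genes. SI_6 held the highest for 3 and the lowest for 3, and over the well-covered genes it was highest for 33.9% and lowest for 32.7%.

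The wider pathway was described by 9 lists, which hold 102 genes with each counted once, the 10 members included. Of the 102, 41 were higher, 27 lower and 34 not called, with a median difference of 0.39. Over all genes, 22.0% were higher and 12.9% lower. A mean of at least 10 reads was reached by 87 of the 102, and among all genes that did so 34.6% were higher and 28.6% lower. The oxygen sensing machinery had 5 of 17 genes higher, 4 lower and 8 not called, with a median of -0.0034. Besides Epas1 and Hif1a, their partner Arnt was higher, from 1372 ± 161 to 4173 ± 896 normalised counts (1.58 ± 0.23, limma adjusted p = 0.00079). So were its paralog Arnt2, from 1.56 to 15.3 (2.45 ± 0.54, adjusted p = 0.00714), and the coactivator gene Crebbp (1.03 ± 0.17, adjusted p = 0.00166). Arnt2 rests on few reads, 7 in bone marrow, 6 of them in BM_5, and 53 in small intestine. The falls were led by Cited2, which competes with HIF for the coactivators p300 and CBP. It went from 2140 ± 219 to 188 ± 33.99 normalised counts (-3.49 ± 0.21, limma adjusted p = 6.64e-06). The paralogs Egln2 (-0.37, adjusted p = 0.192), Hif3a (-1.02, adjusted p = 0.173) and the asparagine hydroxylase gene Hif1an (-0.14, adjusted p = 0.55) were not called.

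Of the 20 HIF target genes of glucose uptake and glycolysis, 5 were higher, 10 lower and 5 not called, with a median of -0.60. The rises were led by membrane transporters. The lactate exporter gene Slc16a3 differed by 4.51 ± 0.22 (limma adjusted p = 2.34e-06) and the glucose transporter gene Slc2a1 by 3.10 ± 0.28 (6.19e-05). The falls were led by Pfkfb4 at -2.35 ± 0.22 (7.45e-05) and Pgam1 at -2.23 ± 0.21 (7.35e-05).

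Of the 14 targets that encode secreted or surface proteins, 8 were higher, 3 lower and 3 not called, with a median of 1.52. Edn1, the endothelin precursor, had no read in bone marrow and was at least 44.1-fold higher. The angiogenic factor Vegfa, named here after its values were seen, went from 1476 to 13795 normalised counts (3.19 ± 0.24, limma adjusted p = 2.46e-05). Angptl4, an inhibitor of lipoprotein lipase, fell from 127 to 8.18 (-3.60 ± 0.35, adjusted p = 9.51e-05), and the transferrin receptor gene Tfrc was lower too (-0.96 ± 0.22, adjusted p = 0.0102).

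The list on mitochondria and autophagy had 2 of 9 genes higher, 3 lower and 4 not called, with a median of -0.29. Beside Ddit4 it was Mxi1, an antagonist of MYC, that was higher (0.75 ± 0.22, limma adjusted p = 0.0288), a difference that median centring turns negative. Bnip3l and Fam162a (-1.19 ± 0.22, adjusted p = 0.00333) led the falls.

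The list on collagen modification had 4 of 8 genes higher, 1 lower and 3 not called, with a median of 1.11. P4ha2, the paralog of P4ha1, was higher by 3.07 ± 0.61 (limma adjusted p = 0.00447) and the crosslinking enzyme gene Lox by 2.25 ± 0.45 (adjusted p = 0.00448), the latter at only 19.9 ± 6.56 normalised counts in small intestine. P4hb, the partner subunit of P4ha1 and a general disulfide isomerase, was lower (-1.66 ± 0.19, adjusted p = 0.000254). P4ha3 was not called (1.32, adjusted p = 0.211). Fibroblast and muscle markers took at most 0.00126% of reads in bone marrow and 0.00544 to 0.0148% in small intestine, and their part was not tested.

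The list on feedback and chromatin had 5 of 13 genes higher, 4 lower and 4 not called, with a median of -0.43. The repressor gene Bhlhe40 differed by 4.73 ± 0.21 (limma adjusted p = 1.61e-06) and the histone demethylase gene Kdm4b by 1.48 ± 0.21 (adjusted p = 0.000747). Cited2 and Egln3 led its falls.

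Adrenomedullin signals through the receptor CALCRL joined to RAMP2 or RAMP3, while RAMP1 turns CALCRL into the receptor for the neuropeptide CGRP. Of the 8 genes of this list, 4 were higher, 2 lower and 2 not called, with a median of 1.29. Ramp2 had no read in bone marrow and was at least 27.0-fold higher (3.38 ± 0.18, limma adjusted p = 4.2e-06), and Ramp3 was higher by 1.88 ± 0.42 (adjusted p = 0.00772). The scavenger receptor gene Ackr3 was higher by 2.75 ± 0.40 (adjusted p = 0.000846) and Adm2, the paralog of Adm, by 2.51 ± 0.46 (adjusted p = 0.00283). Ramp1 fell from 924 to 88.5 normalised counts (-3.34 ± 0.21, adjusted p = 9.05e-06) and Calcrl from 419 to 227 (-0.88 ± 0.18, adjusted p = 0.00484). Only 2 genes of the list, Ramp1 and Calcrl, had a mean of at least 10 reads, and both were lower. The genes called higher rest on few reads. Ackr3 had 55 intestinal reads, 28 of them in SI_6, and Adm2 had 39.

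The list on Ddit4 and the control of mTORC1 had 9 of 14 genes higher, 2 lower and 3 not called, with a median of 0.80. Castor1, an arginine sensor that holds mTORC1 back, went from 0.996 to 151 normalised counts (5.47 ± 0.32, limma adjusted p = 6.41e-06). Sesn2, a leucine sensor of the same kind, named here after its values were seen, went from 38.4 to 620 (3.91 ± 0.25, adjusted p = 1.05e-05). Akt1s1 (-1.03 ± 0.28, adjusted p = 0.0221) and Depdc5 (-0.66 ± 0.17, adjusted p = 0.015), which also restrain mTORC1, were lower. Ddit4l, the paralog of Ddit4, was not called (0.71, adjusted p = 0.496).

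Of the 4 Ndrg genes, Ndrg2 was lower, from 379 ± 28.4 to 172 ± 39.7 normalised counts (-1.14 ± 0.21, limma adjusted p = 0.00275). Like that of Ndrg1, its highest intestinal value was that of SI_6, at 231.4 beside 148.8 to 155.3 in the other intestinal libraries. Ndrg3 (0.36, adjusted p = 0.173) and Ndrg4 (1.14, adjusted p = 0.276) were not called.

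**Figure D5:**
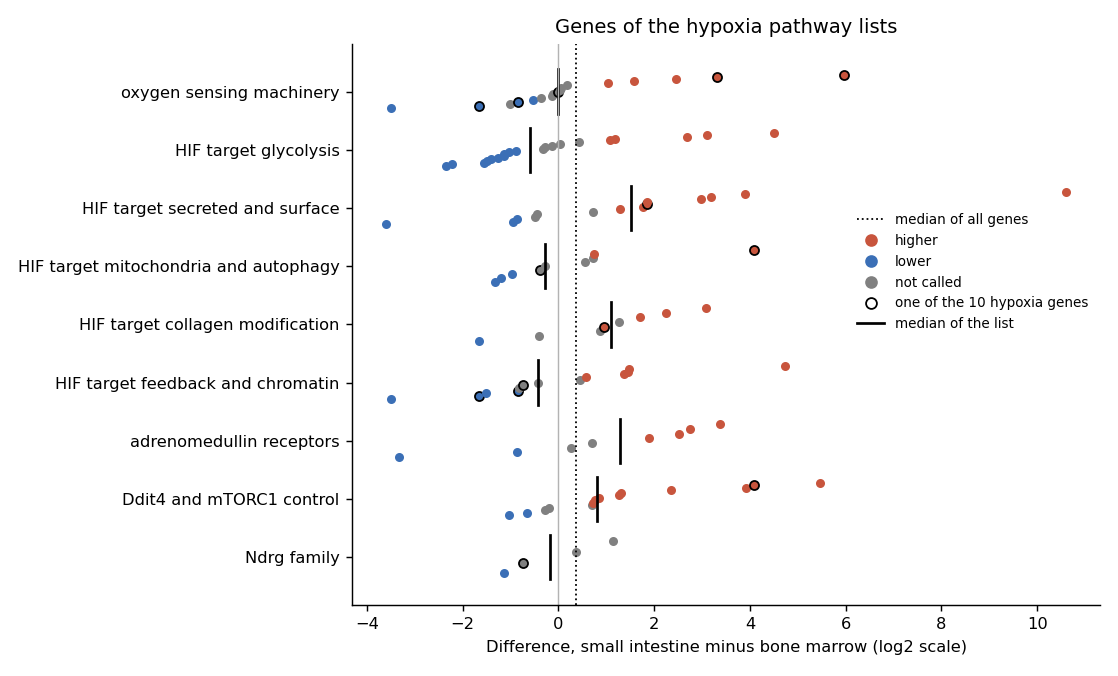
Differences between small intestine and bone marrow on the deposited log2 scale for the genes of the 9 lists, with 1 point per gene coloured by call, black outlines for the 10 hypoxia genes, a bar for the median of each list and a dotted line for the median of all genes (0.37). The lists hold genes in both directions, apart from the Ndrg family, where Ndrg2 alone was called, and the glycolysis list has the lowest median at -0.60.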

How the data were processed

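RNA was sequenced from single ends of amplified cDNA, in 4 libraries per tissue of cells sorted as eosinophils. The study gives 4 mice per tissue, and the labels list 8 separate samples. The authors aligned reads to GRCm38, counted them per gene and applied the variance stabilisation of DESeq2, in R 4.0.3 per the labels, so the deposited values are on a log2-like scale. Not given in the sources used here are the aligner, the strand setting and the handling of multi-mapping reads. Column names gave a library's tissue, not its sample, and libraries keep those names.

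The transformation was inverted from the shared lowest deposited value of 0.92971568. With size factors of 0.721 to 1.53, 100% of the inverted values were whole counts within 0.05 reads, 11508002 to 21289164 per library. Precision is lowest where reads are few, and 22177 genes had a mean under 10. All 38392 identifiers were found in GENCODE M21, which gave coordinates and exon lengths, 38000 with the same symbol.

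The deposited values were compared with limma 3.58.1 in R 4.3.3, over all genes and all 8 libraries, without covariates or a filter and with a constant prior, with 2-sided p-values after Benjamini-Hochberg adjustment and a threshold of 0.05. This fit of the deposited scale stands where the authors fitted a count model, and limma voom used the recovered reads as an alternative. The fit was checked on simulated reads with known changes. The simulation gave both tissues the same spread and changed few genes, so it did not cover unequal spread or a broad shift. For the 3 ratios an exact 2-sided permutation test ran over all 70 assignments. A fold divides mean normalised counts, and a tissue with every library at 0 was set to 3 reads in all. Other steps ran in Python 3.11.15 (scipy 1.17.1, pandas 2.3.3, numpy 2.4.6, matplotlib 3.10.9).

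The members and lists were chosen with earlier results of these data known. Named are all members, the 2 largest rises and falls called in each list, and paralogs and partners of members (Arnt, Hif1an and the Ramp genes included), with the 2 most abundant genes of a marker list. Vegfa, Sesn2, Arnt2, Crebbp, Epx, Cdh5 and Cldn5 were added after their values were seen. One gene that this rule names is not reported here. Further alternatives were a mean-dependent prior, both median centrings, quantile normalisation, a filter at a mean of 10 reads, pseudocounts of 1 and 5, and each library left out (for folds, chosen after seeing the data).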

Additional observations from a re-analysis of the deposited data

Results flagged for a closer look

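Of 25 groups of 4 libraries examined, 2 held a library far from the others, where chance gives about 1 in 20. Hif1a in small intestine was lowest in SI_6, whose gap to the next library was 0.84 of the whole range on the log2 scale, above Dixon's 95% critical value. The ratio of Epas1 to Hif1a in small intestine was highest in SI_6, with a gap of 0.879 of the range. That ratio holds the same SI_6 value of Hif1a, so the 2 flags are not independent. SI_6 also held the highest share of epithelial markers, at 0.156% of reads beside 0.0232 to 0.0620% in SI_7, SI_10 and SI_11, and its part in these gaps was not tested. Without SI_6 the log2 difference of the ratio between tissues was 3.30.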

How the results depend on the processing

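The calls of Hif1a, Epas1, Egln1, Egln3 and Ddit4 kept their direction and their side of the threshold under all 16 alternatives that gave a test. With each library centred on the median of all genes, 3 members were higher and 4 lower, and 4285 of all genes were higher and 10216 lower. The share of calls that were higher was then 29.6%, beside 63.2% with the authors' size factors and 45.9% with quantile normalisation. Bnip3 was called lower only with that centring (-1.28), and Ndrg1 was called lower in 7 of the 16. Vhl, never called, turned positive with limma voom (0.0024) and quantile normalisation (0.0051) and ran from -0.10 to 0.0801 when single libraries were left out. The Ndrg family gave 2 calls with limma voom and with both centrings, 3 with a mean-dependent prior, quantile normalisation or the filter at a mean of 10 reads, and 1 to 2 when single libraries were left out, beside 1 in the report. The filter at 10 reads left 2 calls among the adrenomedullin receptor genes. Leaving out single libraries gave 4 to 5 members higher and 2 to 3 lower. The log2 ratio difference then ran from 2.66 to 4.26 for Epas1 to Hif1a, from -0.94 to -0.66 for Egln3 to Egln1 and from 0.84 to 1.13 for Bnip3 to Bnip3l, with p-values adjusted over the 3 exact permutation tests of up to 0.0571. No paired analysis was possible because no replicate number occurs in both tissues. Low counts limit Adm and the bone marrow value of Epas1, and composition, handling and tissue cannot be told apart.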
